A study of Mus musculus with 32 samples.

Results

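A set of 9 genes whose log2 ratios lay above the wild-type pool in skeletal muscle of Nox4 knockout mice was followed across 4 tissues. The genes are Man1c1, Ublcp1, 2310030G06Rik, Trerf1, Rpap1, Unc13b, Gng10, Usp2 and Ncam1, 9 of the 9030 genes named on the array, read by 12 of its 20794 probes. They were chosen on their muscle ratios, so their muscle values are given as a description and without a test. Brain, kidney and pancreas were not part of the choice and were tested.

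Nox4 is an NADPH oxidase that makes hydrogen peroxide, largely without the activating subunits that its relatives need. In muscle cells it is one of several sources of reactive oxygen, which act on signalling, calcium release and protein turnover. The 9 genes do not form 1 pathway. Man1c1 trims mannose from N-linked glycans in the Golgi, Ublcp1 is a nuclear phosphatase of the proteasome, and Usp2 removes ubiquitin from proteins. Trerf1 and Rpap1 belong to transcription, the former as a zinc finger regulator of steroidogenic genes and the latter as a factor bound to RNA polymerase II. Unc13b primes vesicles for fusion, Gng10 is a gamma subunit of heterotrimeric G proteins, and Ncam1 is a neural cell adhesion molecule that also appears on denervated and regenerating muscle fibres.

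The knockout group was 4 male mice with the Nox4 -/- genotype on a C57BL/6 background, aged 17 weeks, and each animal gave brain, kidney, muscle and pancreas. Each tissue sample was set against RNA pooled from male wild-type C57BL/6 mice of the same age on 2 cDNA arrays with the dyes exchanged, 32 arrays in all and 8 per tissue. The labels give no knockout allele and do not say which muscle was taken. The pool is a single control, so every error here is the spread between knockout animals and leaves out that between wild-type animals.

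Arrays carried 19815 to 20684 values and had medians from −0.07 to 0.05 on the log2 scale. No probe is named Nox4 (0 of 20794), so the deleted gene does not check the labels. The ratios likely run knockout over pool, as the channel labels have it. Ratios carry no level, so a tissue could not be checked against its marker genes, and in whole tissue fewer cells of a type and less RNA per cell cannot be told apart. Values beyond 8 in size, set apart from all others, were found once among the probes of the 9 genes, for Rpap1 in pancreas, and 0 times in muscle.

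The 3 promoters shown were picked because each holds 1 of 3 short motifs that the other promoters of the set lack. RefSeq (GRCm38.p6) gave the 250 bases before the start of 8 of the 9 genes; Ncam1 was not matched. Capitals mark CACGTG, the E-box that clock and Myc-type factors bind, in Unc13b (chr4:43058703-43058952, plus strand). In Ublcp1 (chr11:44470549-44470798, minus strand) they mark TGACG, the core of the cAMP response element, read here on the other strand (CGTCA). In Man1c1 (chr4:134704291-134704540, minus strand) they mark CAGCTG, an E-box of the type that MyoD binds.
Unc13b: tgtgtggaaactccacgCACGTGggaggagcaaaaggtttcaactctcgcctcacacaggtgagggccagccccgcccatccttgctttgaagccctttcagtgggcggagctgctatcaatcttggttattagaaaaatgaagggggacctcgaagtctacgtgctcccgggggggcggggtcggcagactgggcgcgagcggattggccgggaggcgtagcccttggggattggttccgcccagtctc
Ublcp1: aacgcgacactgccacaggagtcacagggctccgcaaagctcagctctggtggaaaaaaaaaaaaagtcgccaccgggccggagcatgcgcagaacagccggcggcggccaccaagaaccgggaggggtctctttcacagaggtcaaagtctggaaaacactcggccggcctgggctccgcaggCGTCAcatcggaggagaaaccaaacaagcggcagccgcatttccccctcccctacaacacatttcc
Man1c1: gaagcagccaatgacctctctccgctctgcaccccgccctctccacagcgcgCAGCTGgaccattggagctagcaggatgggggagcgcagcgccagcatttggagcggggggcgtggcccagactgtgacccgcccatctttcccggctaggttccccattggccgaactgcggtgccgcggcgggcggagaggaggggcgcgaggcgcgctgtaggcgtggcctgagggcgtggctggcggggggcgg

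Motifs were searched on both strands, TGACG and TGACNNNGC can overlap in their first 4 letters, and a match is a description, not a binding site. CACGTG stood in 1 of the 8 promoters of the set and in 6.02% of 32851 mouse promoters of the same length. TGACG stood in 1 of 8 against 17.8%, and CAGCTG in 1 of 8 against 13.0%. The antioxidant element TGACNNNGC stood in 0 of 8 against 10.2%, and TATAAA in 1 of 8, that of 2310030G06Rik, against 12.4%. The GC box GGGCGG stood in 4 of 8 (Man1c1, Unc13b, Gng10 and Usp2) against 32.7%, and CCAAT in 3 of 8 (Man1c1, Unc13b and Trerf1) against 33.8%. The Unc13b and Man1c1 promoters each held both of the last-named motifs. The median GC content was 59.2% in the set and 52.4% over all promoters. In the same table of genes, Unc13b, Gng10 and Man1c1 lie on chromosome 4, Usp2, Ncam1 and 2310030G06Rik on chromosome 9, and Nox4 on chromosome 7.

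Among the genes of protein processing, Man1c1 had muscle log2 ratios of 1.14, 1.83, 1.23 and 1.29 in animals 1 to 4, each the mean of 2 arrays. Its mean was 1.37 ± 0.13 (SE, n = 4), or 2.59-fold the pool, with the narrowest spread relative to its mean of the 9 genes. Ublcp1 stood at 0.80, 1.82, 0.83 and 1.46, with a mean of 1.23 ± 0.20 or 2.34-fold. Animals 2 and 4 lay well above the other pair. Usp2 showed the same division, at 0.41, 1.38, 0.48 and 0.91, with a mean of 0.80 ± 0.18 or 1.74-fold.

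Of the transcription genes, Rpap1 stood at 0.63, 1.78, 1.23 and 1.51, with a mean of 1.29 ± 0.19 or 2.44-fold. Trerf1 had the smallest values of the set, at 0.17, 0.57, 0.42 and 0.47, with a mean of 0.41 ± 0.08 or 1.33-fold. In both genes animal 1 lay clearly below the other 3. The uncharacterised 2310030G06Rik showed this too, at 0.58, 1.46, 1.24 and 1.23, with a mean of 1.13 ± 0.15 or 2.19-fold.

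Of the genes that act at membranes, Unc13b stood at 0.48, 1.04, 0.61 and 0.76 in muscle, with a mean of 0.72 ± 0.11 or 1.65-fold. Gng10 stood at 0.43, 1.01, 0.58 and 0.83, with a mean of 0.71 ± 0.11 or 1.64-fold. That value averages unlike probes, with means of 1.38 and 0.04, so its closeness to Unc13b is that of neither probe. Ncam1 was lower, at 0.29, 0.80, 0.37 and 0.46, with a mean of 0.48 ± 0.10 or 1.39-fold. It too averages unlike probes, at 0.83, 0.68 and −0.08. For all 9 genes animal 2 was highest and animal 1 lowest.

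All 9 genes lay above 0 on all 8 muscle arrays, as did 251 of 16118 genes measured on all of them (1.56%), while 89 lay below 0 on all 8. This count describes the choice and supports nothing. Ranked by mean among the 251, Man1c1 was 2nd, Rpap1 7th, Ublcp1 13th and 2310030G06Rik 18th. Usp2, Unc13b and Gng10 ranked 73rd, 97th and 103rd, and Ncam1 and Trerf1 157th and 176th. Limma called 0 of 16662 genes in muscle at an adjusted p of 0.05 (0%), with 1215 at an unadjusted p under 0.05.

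**Figure D1:**
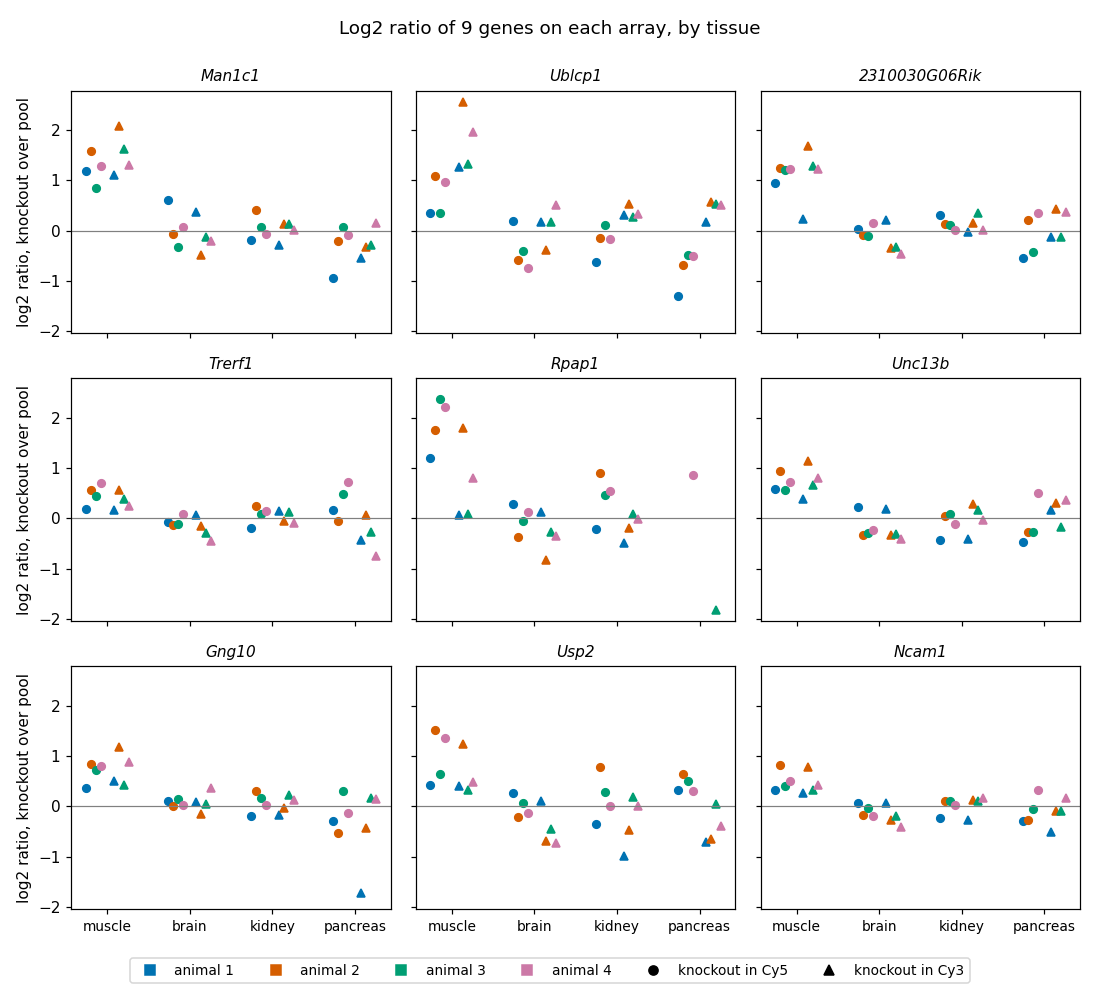
Log2 ratio of knockout over pool (vertical axis) for each of the 9 genes on every array, by tissue (horizontal axis). Colours are the 4 animals, circles are arrays with the knockout in Cy5 and triangles arrays with the knockout in Cy3. All muscle points lie above 0, while points of the other tissues scatter on both sides. For Rpap1 in pancreas, the value of 16.5 is not drawn.

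The 2 genes with more than 1 probe did not show the muscle value on every probe. For Gng10, probe 20572 had a muscle mean of 1.38, above 0 on 8 of 8 arrays, and probe 2353 a mean of 0.04, above 0 on 4 of 8. For Ncam1, probes 16615 and 20638 stood at 0.83 and 0.68, above 0 on 8 of 8 arrays each, and probe 9287 at −0.08, above 0 on 4 of 8. The means of 0.71 for Gng10 and 0.48 for Ncam1 are averages over probes that differ in this way.

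The gap between the probes was 1.34 for Gng10, larger than in 99.8% of the 2479 genes with several probes, and 0.91 for Ncam1, larger than in 98.4%. The median gap over those genes was 0.15. Away from muscle, the deviations of animals from their tissue mean correlated at r = 0.80 between the 2 Ncam1 probes that were high in muscle (12 values from the same arrays). Probe 9287 correlated with them at 0.13 and 0.06, and the 2 Gng10 probes at 0.15. The other 7 genes have 1 probe each, so no second probe was there to compare.

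**Figure D2:**
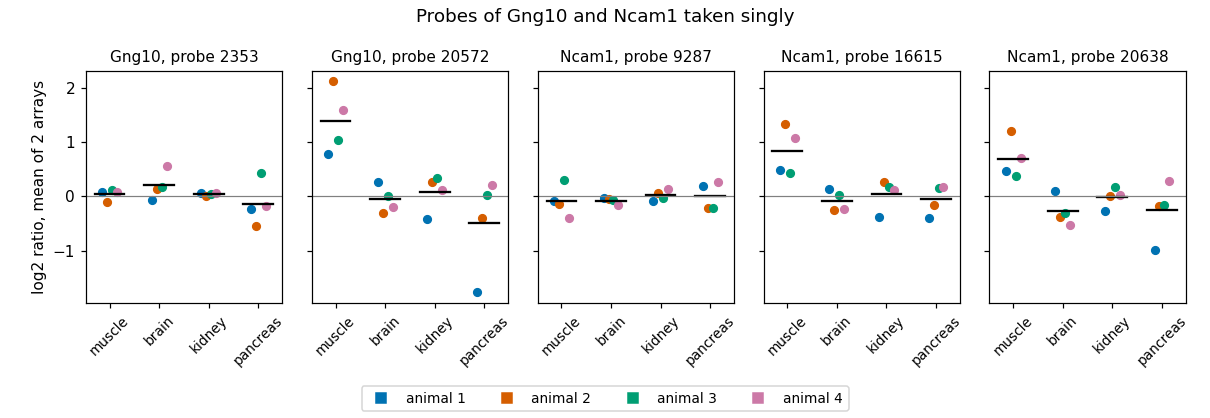
Log2 ratio of each probe of Gng10 and Ncam1 (vertical axis, mean of the 2 arrays of an animal) in the 4 tissues (horizontal axis). Points are animals and bars are means over 4 animals. In muscle, Gng10 probe 20572 and Ncam1 probes 16615 and 20638 stand at 1.38, 0.83 and 0.68, while Gng10 probe 2353 and Ncam1 probe 9287 stand at 0.04 and −0.08.

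Probe numbers moved with the muscle values. Of the probes with numbers in the last 10% of the array, 93 of 1982 (4.69%) lay above 0 on all 8 muscle arrays, against 227 of 17504 (1.30%) among the other 90%. In the set, 4 of the 12 probes had numbers in the last 10%, and all 4 lay above 0 on all 8 arrays. Of the other 8, which include the low probes of Gng10 and Ncam1, 6 did. The part of probe position in the muscle values was not tested.

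The dye orientations gave unequal values for some of the genes. With the knockout in Cy5 and in Cy3, muscle means were 0.68 ± 0.39 and 1.77 ± 0.62 for Ublcp1 (SD, n = 4 arrays each). They were 1.89 ± 0.53 and 0.69 ± 0.82 for Rpap1, whose 4 Cy3 arrays included the lowest muscle value, 0.06. For Ublcp1 the Cy5 mean was below the Cy3 mean in all 4 tissues, with Cy5 minus Cy3 at −1.09 in muscle, −0.51 in brain, −0.57 in kidney and −1.19 in pancreas. Usp2 ran the other way in all 4 tissues, at 0.37, 0.44, 0.49 and 0.86 in the same order.

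For 4 genes the orientations differed by at most 0.07 in muscle. Means in Cy5 and Cy3 were 1.16 and 1.10 for 2310030G06Rik, 0.70 and 0.74 for Unc13b, 0.68 and 0.75 for Gng10, and 0.51 and 0.45 for Ncam1. Man1c1 stood further apart at 1.22 and 1.52, and Trerf1 at 0.47 and 0.34. The deposited tables do not say whether the arrays with the knockout in Cy3 had already been turned to run the same way. If they had not, the muscle means with those arrays turned would lie between −0.55 (Ublcp1) and 0.60 (Rpap1), with Man1c1 at −0.15, Unc13b at −0.018 and Gng10 at −0.035, and the set would have a median of 0.028 in place of 0.80.

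**Figure D3:**
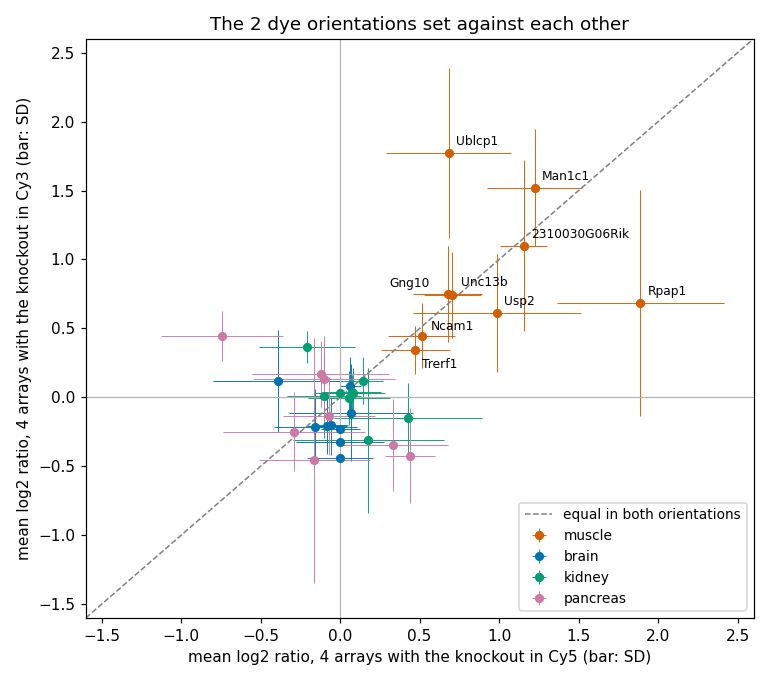
Mean log2 ratio on the 4 arrays with the knockout in Cy5 (horizontal axis) against the 4 arrays with the knockout in Cy3 (vertical axis), 1 point per gene and tissue, with bars for the SD over arrays; Rpap1 in pancreas is left out. The dashed line marks equal values. Muscle points lie to the upper right, with Ublcp1 at 0.68 and 1.77 above the line and Rpap1 at 1.89 and 0.69 below it.

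In the tissues that did not enter the choice, none of the 9 genes passed. Limma called 0 of 16729 genes in brain (0%), 0 of 16825 in kidney (0%) and 0 of 16377 in pancreas (0%), while an unadjusted p under 0.05 was reached by 691, 1562 and 477. The set gave 0 of 9 calls in brain, 0 of 9 in kidney and 0 of 8 in pancreas, where Rpap1 had values on only 3 of 8 arrays, 16.5, 0.86 and −1.82, and no animal with both. With the Cy3 arrays turned, limma called 2 of 8 in pancreas, Ublcp1 at −0.59 (adjusted p = 0.0354) and Usp2 at 0.43 (adjusted p = 0.0497), among 2388 calls over all genes.

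In brain the means ran from −0.22 for Usp2 to 0.07 for Gng10, with a median of −0.14 (0.01 over all genes), and 8 of 9 were below 0. Gng10 averages probe 2353 at 0.20 and probe 20572, the one high in muscle, at −0.06. In kidney they ran from −0.07 for Usp2 to 0.14 for Rpap1, with a median of 0.06 (0.00 over all genes), and 7 of 9 were above 0. In pancreas they ran from −0.31 for Gng10 to 0.02 for Unc13b, with a median of −0.05 (0.00 over all genes), and 3 of 8 were above 0. Of all genes, 53.4% lay above 0 in brain, 51.5% in kidney and 50.4% in pancreas. The members share animals and arrays, so these counts are not of independent genes. Without animals 1, 2, 3 and 4 in turn, 8, 7, 7 and 8 of 9 were below 0 in brain, 9, 5, 6 and 6 of 9 above 0 in kidney, and 4, 2, 2 and 1 of 8 above 0 in pancreas. With the Cy3 arrays turned, the side of 0 in brain changed for most genes: 7 of 9 were above 0, with a median of 0.07, from −0.25 for Ublcp1 to 0.22 for Usp2. In kidney 6 of 9 and in pancreas 4 of 8 were then above 0, with medians of 0.02 and 0.01.

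Trerf1 came nearest to a call in brain, where its animals stood at −0.01, −0.14, −0.20 and −0.17. Its mean was −0.13 ± 0.05 (SE, n = 4), with a 95% interval from −0.26 to 0.00 (limma, unadjusted p = 0.0537, adjusted p = 0.773). Its single arrays ran from −0.44 to 0.10, and with the Cy3 arrays turned its mean was 0.07. In kidney 2310030G06Rik had 0.14, 0.14, 0.23 and 0.01, all above 0. The mean was 0.13, with an interval from 0.02 to 0.25 (limma, unadjusted p = 0.0305, adjusted p = 0.525), and 7 of 8 arrays lay above 0. With the Cy3 arrays turned, this mean was 0.01 (limma, adjusted p = 0.925).

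For Man1c1 and Ublcp1, enzymes of the Golgi and of the nuclear proteasome, intervals were available in all 3 tissues. Man1c1 had a mean of −0.02 in brain (95% interval −0.37 to 0.33), 0.03 in kidney (−0.18 to 0.23) and −0.27 in pancreas (−0.64 to 0.10). Ublcp1 had −0.14 (−0.42 to 0.15), 0.08 (−0.09 to 0.24) and −0.15 (−0.47 to 0.17). All 6 intervals include 0. Rpap1 had −0.16 in brain (−0.50 to 0.17) and 0.14 in kidney (−0.16 to 0.43), and no interval in pancreas. The widest interval was that of Gng10 in pancreas, from −0.88 to 0.26, where animal 1 stood at −1.0035 and animal 3 at 0.23.

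The ratios of these genes were also compared between brain, kidney and pancreas. A difference here is one of ratios, since no array set tissues against each other. Of 16292 genes, limma called 0 for brain against kidney (0%), where 513 had an unadjusted p under 0.05. It called 0 for brain against pancreas (0%) and 0 for kidney against pancreas (0%), where 1390 and 975 did. Among the 8 genes measured in all 3, Trerf1 had the smallest unadjusted p, for a ratio lower in brain than in kidney (brain minus kidney −0.19 ± 0.07, SE; limma, unadjusted p = 0.0265). The largest differences were those of Gng10, 0.38 ± 0.22 for brain minus pancreas and 0.37 ± 0.22 for kidney minus pancreas.

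Set against the same animals' other tissues, muscle was higher in each of the 4 animals for every gene and tissue that could be compared. These differences rest on the values that chose the genes and carry no test. Muscle minus kidney was 1.35 ± 0.17 for Man1c1 (SD, n = 4), 1.15 ± 0.44 for Ublcp1, 1.15 ± 0.22 for Rpap1 and 0.995 ± 0.39 for 2310030G06Rik. It was 0.87 ± 0.43 for Usp2, 0.77 ± 0.20 for Unc13b and 0.66 ± 0.21 for Gng10, and smallest for Ncam1 and Trerf1, at 0.46 ± 0.19 and 0.35 ± 0.13.

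Muscle minus brain ran from 0.54 ± 0.24 for Trerf1 to 1.45 ± 0.80 for Rpap1, with wider spreads between animals. Muscle minus pancreas ran from 0.41 ± 0.13 for Trerf1 to 1.64 ± 0.40 for Man1c1. All 4 muscle animals lay above all 4 brain animals for 9 of 9 genes (3.21% of all genes), above all kidney animals for 9 of 9 (3.19%) and above all pancreas animals for 8 of 8 (2.23%). All 12 other values lay below the 4 muscle values for 8 of 8 (1.27%). Within single orientations, with Rpap1 against pancreas left out for its few arrays, most differences kept their sign in every animal. The exceptions were Trerf1 against pancreas in Cy5 (mean 0.14, above 0 in 2 of 4 animals) and Rpap1 in Cy3 (above 0 in 3 of 4 against brain and against kidney).

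**Figure D4:**
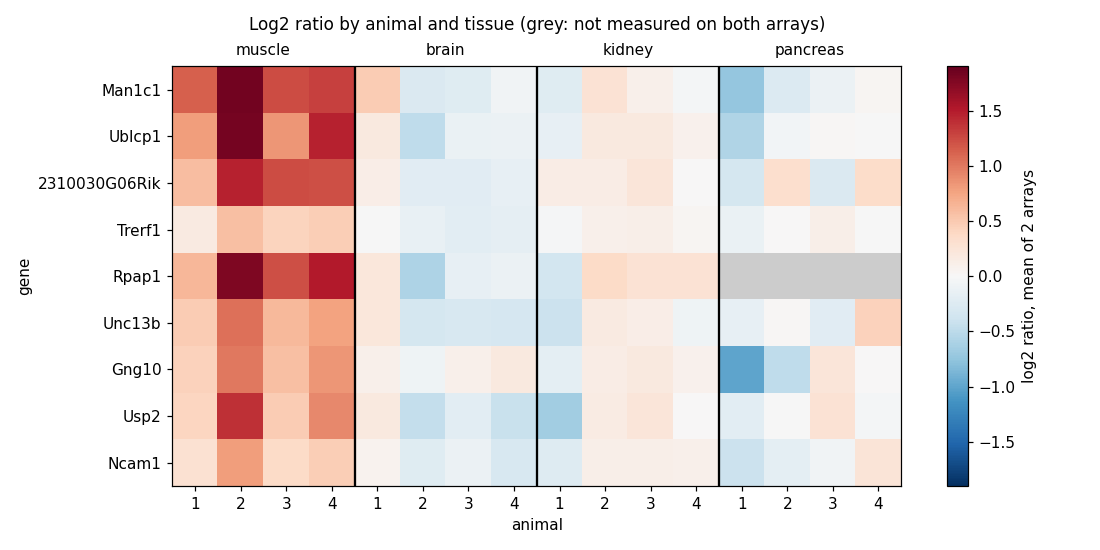
Log2 ratio (colour, mean of the 2 arrays of an animal) of the 9 genes (vertical axis) in each animal and tissue (horizontal axis), red above the pool and blue below, with grey where no animal had both arrays. In muscle all cells are red, deepest in animal 2. Columns of brain and kidney tend to share a colour, as in brain, where 8 of 9 genes are above 0 in animal 1 and 0 of 9 in animal 2.

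Genes tended to share a side of 0 within an animal in brain and kidney, where animal 1 stood opposite the others. Pancreas showed a shared side in animal 1 only. In brain, 8 of 9 were above 0 in animal 1, and 0, 1 and 1 of 9 in animals 2, 3 and 4, while 49.0% to 53.0% of all genes lay above 0 in each animal. In kidney the order turned, with 1 of 9 above 0 in animal 1 and 9, 9 and 7 of 9 in the others. In pancreas 0 of 8 were above 0 in animal 1 and 3, 4 and 5 of 8 in the others. Animal 1 was thus highest for 8 of 9 genes in brain and lowest for 8 of 9 in kidney, 7 of 8 in pancreas and 9 of 9 in muscle.

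As a description, the deviations of animals from their tissue mean, in which any deviation of the pool cancels, were correlated between pairs of the 8 genes measured throughout. Over the 12 values of brain, kidney and pancreas the median r was 0.68, with a range from 0.16 to 0.91, and 28 of 28 pairs were above 0. Over pairs of all 14609 genes the median was 0.00. The 12 values come from 4 animals and the genes share arrays. Without animal 1 the median r fell to 0.14, with 18 of 28 pairs above 0, whereas without animals 2, 3 and 4 it was 0.70, 0.78 and 0.76. Turning the Cy3 arrays gave 0.0705, with 15 of 28 pairs above 0.

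The deviations were also compared between the 2 arrays of an animal. The mean of the 8 genes, as a deviation from its tissue and orientation, correlated at r = 0.90 between the Cy5 and the Cy3 array of the same animal (12 pairs of arrays) and lay on the same side in 10 of 12. Gene by gene this r was 0.85 for Ncam1, 0.72 for Unc13b, 0.70 for Man1c1 and 0.58 for 2310030G06Rik. It was 0.44 for Gng10, 0.41 for Usp2 and 0.23 for Ublcp1, and −0.76 for Trerf1, whose 2 orientations moved in opposite ways. For single genes the median was 0.51 over the 8 genes, against −0.10 over 7853 named genes with a 95th percentile of 0.59. The r of 0.90 is for a mean over genes and cannot be set against that single-gene background. No value without animal 1 is given for it. Turning the Cy3 arrays would change the sign of each of these r, to −0.90 for the mean of the 8 genes and 0.76 for Trerf1. Both arrays of an animal carry the same RNA, and the part of RNA quality or of the sample in this pattern was not tested.

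The genes most like the set were sought among 7845 other named genes by their r with its mean over the 16 animal and tissue values. The first 6 were Flrt3, a transmembrane adhesion protein (0.99), Bace2, an aspartyl protease (0.99), Icam5, an adhesion molecule of forebrain neurons (0.98), Mtfr1, a regulator of mitochondrial fission (0.98), Phf11d (0.98) and Mrpl51, of the mitochondrial ribosome (0.98). Their muscle means were 1.21, 1.26, 1.32, 0.79, 0.88 and 0.85, above 0 on 8 of 8 arrays each, so the gap between muscle and the rest weighs heavily in this r.

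The 12 values of brain, kidney and pancreas are among the 16 that chose these 6 genes, so their r there is part of the choice. As deviations from the tissue mean it ran from 0.90 for Mrpl51 to 0.98 for Flrt3 over 12 values, and from 0.57 for Mrpl51 to 0.90 for Phf11d over 9 values without animal 1. Of the 7845 genes, 8.62% had r above 0.5 over the 12 values and 10.3% over the 9.

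In lists of genes that share a role with a member, 0 genes passed limma in muscle, where 41.6% of all genes lay above 0 with a median of −0.02. The counts and medians include the member itself, which was chosen for lying above 0 in muscle, so the choice raises them. Without it, medians were 0.01 for the proteasome list, 0.003 for deubiquitinases, −0.03 for N-glycan trimming and −0.09 for RNA polymerase II. They were 0.04 for steroidogenesis, −0.02 for clock genes and −0.01 for G protein subunits. For vesicle, adhesion and denervation genes they were −0.001, −0.01 and −0.02. Of 41 measured genes of the proteasome and its regulators, the setting of Ublcp1, 21 were above 0 with a median of 0.02, with Psmd2 at 1.10 ± 0.13 (SE, n = 4) and Psmd12 at 0.69 ± 0.18. Of 34 deubiquitinases 19 were above 0 with a median of 0.00, and Usp25 and Usp39 stood at −0.19 and −0.15. Of 20 genes of N-glycan trimming 7 were above 0 with a median of −0.02, and Mgat4a and Lman2 stood at −0.27 and −0.15.

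Around Rpap1, 8 of 18 genes of RNA polymerase II and its assembly were above 0 with a median of −0.05. The Rpap1 relative Rpap2 stood at −0.44 ± 0.10, below 0 in all 4 animals but above 0 on 3 of 8 arrays. Gtf2f1 stood at −0.31 ± 0.09, above 0 on 1 of 8. Among 15 regulators and targets of steroidogenesis, the list of Trerf1, 10 were above 0 with a median of 0.06, and the coactivator Ep300 and the factor Sp1 stood at 0.73 ± 0.23 and 0.33 ± 0.08. Clock genes, among which Usp2 is counted, had 6 of 19 above 0 with a median of −0.01, with Btrc at 0.32 and Dbp at −0.24.

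Around Gng10, 9 of 21 G protein subunits were above 0 with a median of 0.00, and the alpha subunit Gna13 (0.43 ± 0.10) and the beta subunit Gnb4 (0.25 ± 0.07) were above 0 on 8 of 8 arrays. Vesicle priming and fusion genes had 15 of 29 above 0 with a median of 0.01, with Syt11 and Snap23 at −0.21 and −0.29. Adhesion molecules had 14 of 27 above 0 with a median of 0.00, with Cntn4 at 1.24 ± 0.27 and Cdh5 at 0.42 ± 0.10. Of 17 genes of denervation and fibre regeneration, the list that holds Ncam1, 7 were above 0 with a median of −0.02, and Gadd45a and Ache stood at 0.35 and 0.16.

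For markers of cell types, list medians ran from −0.12 to 0.04, and 0 genes passed limma. Above 0 were 7 of 21 muscle fibre genes (median −0.03), 1 of 6 of satellite cells (−0.12), 4 of 14 of neurons (−0.07) and 2 of 5 of Schwann cells (−0.01). So were 5 of 11 of adipocytes (−0.04), 6 of 10 of fibroblasts (0.00), 3 of 10 of macrophages (−0.11), 3 of 8 of T and B cells (−0.03), 3 of 11 of endothelium (−0.05) and 2 of 4 of erythroid cells (0.02). Markers of cells foreign to muscle had 4 of 9 of kidney tubule (−0.01), 2 of 4 of pancreatic acini (−0.01) and 3 of 5 of islets (0.04) above 0.

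The 2 genes with the smallest p of each marker list lay on both sides of the pool. Furthest above it was the slow-fibre troponin Tnni1 at 0.72 ± 0.20 (SE, n = 4), above 0 on 7 of 8 arrays. Only 7 of 21 genes of its fibre list lay above 0, with a median of −0.03. The endothelial receptor Tek stood at 0.60 ± 0.14 (7 of 8) and the endothelial cadherin Cdh5 at 0.42 ± 0.10 (8 of 8). Most of the endothelial list lay below 0, with 3 of 11 genes above it and a median of −0.05. Furthest below was the macrophage protease Ctss at −0.53 ± 0.08, above 0 on 4 of 8 arrays. The matrix protein Postn of fibroblasts stood at −0.49 ± 0.14 (2 of 8), in a list with 6 of 10 genes above 0. The leukocyte phosphatase Ptprc and Cd3d of T cells stood at −0.43 ± 0.14 and −0.37 ± 0.11 (3 of 8 each). The myoglobin gene Mb stood at −0.36 ± 0.14 (2 of 8). These low means thus average arrays on both sides of 0. Satellite cell markers Cdh15 and Pax3 stood at −0.24 ± 0.06 and −0.23 ± 0.10, above 0 on 2 and 4 of 8 arrays. Neuronal Nefh and Slc17a7 stood at −0.13 ± 0.06 and −0.09 ± 0.06, above 0 on 0 and 4 of 8. The others were Mag and Cnp of myelin (−0.14 and −0.06), Slc36a2 and Pparg of adipocytes (−0.25 and 0.20), Col1a1 (−0.18), C1qb (−0.14), and Hba-a1 and Slc4a1 of erythroid cells (0.14 and 0.06). Genes of kidney and pancreas were Aqp1 (−0.32), Cdh16 (−0.23), Cuzd1 (0.36, in 3 animals), Cpa1 (−0.17), Sst (0.10) and Gcg (−0.29). The part of cell composition in the values of the 9 genes was not tested. Which cells of muscle carry the values of the 9 genes cannot be told from these ratios.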

How the data were processed

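Each array's deposited column holds log2 ratios, 1 for each probe. The base is inferred from the size of the extreme values. How images were read, corrected for background and normalised is not given in the sources used here. The design text gives a pool of 4 wild-type animals, while the labelling protocol gives another number. The direction, knockout over pool, is likely and not stated. Per the labels, labelling of the cDNA was indirect. The files name no genome build, and symbols come from the platform annotation.

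Probes of a symbol were averaged, then the 2 dye-swapped arrays of an animal, both required. Values beyond 8 were kept, and taken as missing in an alternative. Limma 3.58.1 (R 4.3.3; lmFit, eBayes) tested the mean over animals against 0, and differences among brain, kidney and pancreas, two-sided, where 3 or more animals had a value. P-values were Benjamini-Hochberg adjusted over all genes, with a threshold of 0.05. The fits were run on simulated independent genes of equal spread, with changes larger than any member mean outside muscle. That run does not show whether changes of the sizes seen here would be called. SE is limma's, SD the plain spread, and the number of arrays limits precision. The labels do not say whether the 4 animals came from 1 litter. Animal numbers pair tissues, since the labels name the same animals.

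Members and lists were chosen with earlier results of these data known. The text names all members, the 2 genes of each list with the smallest muscle p that are not members, and the 6 genes most like the set. Alternatives were centring, scaling, single probes, 1 array per animal, an 8-array fit with a dye term, 1 orientation, turned signs, each animal left out, robust moderation, an animal block and other tissues in the fit. Left out as columns of no mapped sample were 0.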

Additional observations from a re-analysis of the deposited data

Results flagged for a closer look

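In 4 of 35 groups of 4 animal values of the 9 genes, 1 animal stood apart from the other 3. It was animal 1 each time. The rule marks about 1 group in 20 by chance, a rate for independent groups. These groups share arrays and animals and include the muscle values that chose the genes, so 4 of 35 cannot be set against that rate. Ublcp1 in pancreas was at −0.57 in it and between −0.05 and 0.03 in the others. Rpap1 in kidney was at −0.35 against 0.27 to 0.36, and Ncam1 in kidney at −0.25 against 0.09 to 0.11. Unc13b in brain was at 0.21 against −0.33 to −0.30.

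Trerf1 lay above 0 in every animal in muscle and below 0 in every animal in brain, with a muscle minus brain difference of 0.54. This difference was not tested, because muscle chose the gene. Animal 1 stood at −0.005 in brain, and 2 of 8 brain arrays lay above 0. With the Cy3 arrays turned, the Trerf1 mean was 0.07 in brain and 0.07 in muscle.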

How the results depend on the processing

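No member was called in brain, kidney or pancreas, or between them, under any alternative run, except with the Cy3 arrays turned, where limma called 2 of 8 in pancreas, Ublcp1 at −0.59 (adjusted p = 0.0354) and Usp2 at 0.43 (adjusted p = 0.0497). With those arrays turned, calls over all genes were 1 in brain, 2388 in pancreas, 1141 for brain against pancreas and 100 for kidney against pancreas. The median muscle value of the set was then 0.028, and Gng10 (−0.035), Man1c1 (−0.15), Ublcp1 (−0.55) and Unc13b (−0.018) changed sign. The cause was not tested. Calls over all genes were 1 in brain and 1 in pancreas from Cy5 arrays alone. With values beyond 8 as missing, they were 1 in kidney and 2 between kidney and pancreas. In kidney the 8-array fit with a dye term called 8, and robust moderation 1. With an animal left out, calls over all genes ran from 0 to 1 in brain, 0 to 1 between brain and kidney, 0 to 2 for brain against pancreas and 0 to 1 for kidney against pancreas. The median r between members ran from 0.14 to 0.78, and was 0.0705 with the Cy3 arrays turned; both alternatives were chosen after seeing the data. With the animal as a block in a paired fit, calls between tissues were 0. The muscle median of the set stayed between 0.62 and 0.93 over all other alternatives run. Values of single members within a tissue moved by more than the SD between animals in 24 further cases. Signal over background was not analysed here, so dim probes were not set apart.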
